A study of Mus musculus with 12 samples.

Results

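Cidea belongs to the CIDE family of lipid droplet proteins, and its level split 12 mouse liver RNA-seq libraries into 5 high-Cidea libraries, at 20 FPKM or more, and 7 low-Cidea libraries, under 20 FPKM. FPKM is the number of fragments scaled to gene length and to sequencing depth, and a gene that a library does not list was taken as 0. The study crossed diet, LF or HF for 8 months, with genotype: mice with a floxed TSP1 gene (the genotype label reads WT) and mice without TSP1 in macrophages. That gave 4 groups of 3 libraries, LF and HF floxed and LF and HF knockout, all from 129/B6 mice 10 months old. The labels name no animals, and the driver of the macrophage deletion is not given in the sources used here. Because Cidea itself made the split, and every other gene was measured in the same libraries, differences between high and low libraries are described below without a test.

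The high-Cidea libraries were all 3 HF floxed libraries and LF knockout replicates 2 and 3, so the split ran across diet (2 of 6 LF and 3 of 6 HF libraries) and across genotype (3 of 6 floxed and 2 of 6 knockout libraries). Cidea stood at 47.2, 52.4, 68.2, 60.6 and 27.4 FPKM in LF knockout 2 and 3 and HF floxed 1, 2 and 3, and values of the high-Cidea libraries are given in this order throughout. The 3 LF floxed libraries had 0, 0.11 and 0.11 FPKM, LF knockout 1 had 0.61 FPKM, and HF knockout 1, 2 and 3 had 0, 7.89 and 2.32 FPKM. HF floxed 3, at 27.4 FPKM, and HF knockout 2, at 7.89 FPKM, were the libraries just inside and just outside the threshold. Every LF floxed and every HF knockout library was thus low, HF floxed was high throughout, and LF knockout was the only group that the threshold divided.

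**Figure D1:**
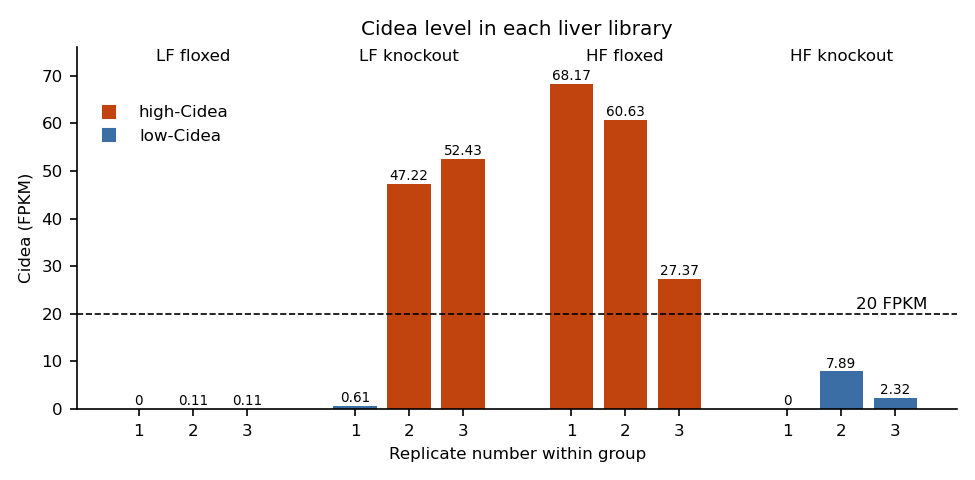
Cidea level in FPKM (vertical axis, linear) in each of the 12 libraries, grouped by diet and genotype, 1 bar per library. Orange bars are the 5 libraries at or above the dashed line at 20 FPKM and blue bars the 7 below it, and LF knockout is the only group with bars of both colours.

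Hepatocytes store triglyceride in lipid droplets, whose coat proteins control how fast lipid enters and leaves. CIDE proteins gather at the contacts between droplets and pass lipid from smaller to larger ones. Cidea is best known from fat tissue and is scarce in lean liver, and it is switched on in fatty liver together with other targets of the nuclear receptor PPAR gamma, such as Cidec, Plin4, Mogat1 and Cd36. Liver fat itself was not measured here, so the libraries are called by their Cidea level and not by a fat content.

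The libraries held 16131506 to 16536016 estimated counts, of which loci without a gene name took 6.65 to 17.33%. Albumin (Alb), the main secreted protein of hepatocytes, was at 20593 FPKM or more in all 12. Libraries LF knockout 2 and 3 were near-identical (Pearson's r across genes 0.995, mean chi-square per gene 2.85), as were HF floxed 1 and 2 (0.992 and 8.87), against 50.7 to 527.73 in the other pairs of a group. Whether these pairs are separate animals is not stated, and averaging each left 14 genes higher and 1 lower by the rule below, in place of 13 and 1. HF knockout 2 stood apart from all others, with a median r of 0.875 against 0.955 to 0.972. Thbs1, which encodes TSP1, was at 0.11, 0.06 and 0.07 FPKM in LF floxed, 0.08, 0.55 and 0.55 in LF knockout, 0.75, 0.75 and 0.31 in HF floxed and 0.16, 1.42 and 1.63 in HF knockout. Whole liver RNA counts Thbs1 of every cell type, so these values do not check a deletion in macrophages. In whole tissue, fewer cells of a type and less RNA per cell cannot be told apart.

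Adgrv1, Clstn3 and Fitm1 had the largest differences among the 13 genes whose levels were higher in every high-Cidea library, while genes with overlapping ranges, such as Cidec, could differ more in their medians. Of 10532 named genes with at least 1 FPKM in 3 libraries, 13 (0.123%) had every high-Cidea library above every low-Cidea library and medians at least 1 apart on the log2(FPKM + 1) scale, and 1 (0.00949%) lay below in the same sense. Without the demand on size, the ranges of 126 genes (1.2%) lay apart upward and those of 16 (0.152%) downward. The median gene differed by 0.12 and 69.0% of genes were higher in the high-Cidea libraries, which on counts scaled to library size (CPM, with TMM factors) became -0.01 and 47.7%, so sizes below are to be read against 0.12. Of the 14 genes, 7 met the rule on that second scale too: Adgrv1, Clstn3, Fitm1, Hspa1b, Gnai1, Gpc1 and Tff3.

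Adgrv1 encodes a very large adhesion G protein-coupled receptor known from hair cells of the inner ear. Adgrv1 was at 23.5, 21.5, 24.4, 26.97 and 12.2 FPKM in the high-Cidea and at 1.09 to 9.03 (median 2.34) FPKM in the low-Cidea libraries, a difference of 2.88. The high-Cidea median was 10 times the low-Cidea one, and the nearest low library was HF knockout 3, at 9.03 FPKM.

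Clstn3 encodes calsyntenin 3, a neuronal adhesion protein, and its locus also gives the transcript Clstn3b, made in fat cells, whose protein sits where the endoplasmic reticulum meets lipid droplets. Counts per gene do not separate these transcripts. Clstn3 was at 36.3, 40.1, 26.2, 25.8 and 23.9 FPKM in the high-Cidea and at 0.73 to 22.4 (median 4.06) FPKM in the low-Cidea libraries, a difference of 2.43. Its nearest low libraries were HF knockout 3 and LF knockout 1, the latter at 12.99 FPKM against 3.75 to 4.99 in LF floxed.

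Fitm1 encodes a protein of the endoplasmic reticulum that binds triglyceride and takes part in forming lipid droplets. Fitm1 was at 97.8, 101.4, 80.1, 72.9 and 92.1 FPKM in the high-Cidea and at 2.32 to 56.4 (median 23.4) FPKM in the low-Cidea libraries, a difference of 1.93. Its 5 high libraries spanned a narrow range, and LF knockout 1 (46.7 FPKM) and HF knockout 3 (56.4 FPKM) lay between them and LF floxed.

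Gnai1, the alpha subunit of an inhibitory G protein, was scarce in all 12 libraries. Gnai1 was at 1.39, 1.06, 2.58, 2.7 and 1.68 FPKM in the high-Cidea and at 0.04 to 0.54 (median 0.19) FPKM in the low-Cidea libraries, a difference of 1.17. Low levels are understated on this scale, and the ratio of the medians was 8.84. Gnai1 passed the filter of 1 FPKM in 3 libraries only through high-Cidea libraries. Bmyc, a short relative of Myc, was at 19.2, 20.7, 18.4, 18.4 and 23.8 FPKM against 5.81 to 14.04 (median 6.99) in the low libraries. All 3 LF floxed libraries of Bmyc, at 10.9 to 14.04 FPKM, lay above all 3 HF knockout libraries, at 5.81 to 6.63 FPKM.

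The other genes apart had varied roles. Ddc, which decarboxylates L-DOPA to dopamine, had 35.3, 34.4, 37.4, 38.7 and 34.2 FPKM against 5.49 to 31.2 (median 15.3) FPKM. Abcg2, an efflux pump for drugs and urate, had 44.8, 47.6, 43.7, 47.3 and 54.6 FPKM against 19.2 to 34.9 (median 22.4) FPKM. Fmo5, a flavin-containing monooxygenase, had 156.3, 156.6, 180.9, 189.1 and 171.7 FPKM against 48.2 to 139 (median 82.7) FPKM. The ranges of Ddc and Abcg2 overlapped on TMM-scaled CPM, while that of Fmo5 stayed apart with a smaller difference of 0.68. For Sult5a1, a sulfotransferase, the gap was only 0.02 FPKM, between 6.62 in LF knockout 2 and 6.60 in HF knockout 1. Gpc1, a heparan sulfate proteoglycan of the cell surface, had 15.4, 16.2, 16.9, 15.7 and 12.3 FPKM against 3.41 to 11.9 (median 6.76) FPKM, and it was the only one of the 14 genes that also met the rule with the threshold at 5 or at 1 FPKM of Cidea.

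Tff3, a trefoil peptide secreted by mucosal and biliary epithelium, was the gene lower in the high-Cidea libraries. Tff3 was at 0.15, 0.31, 1.99, 1.69 and 0.91 FPKM in the high-Cidea and at 2.29 to 206.1 (median 10.7) FPKM in the low-Cidea libraries, a difference of -2.62. HF knockout 2 had far more Tff3 than any other library, and without that library Tff3 still met the rule.

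**Figure D2:**
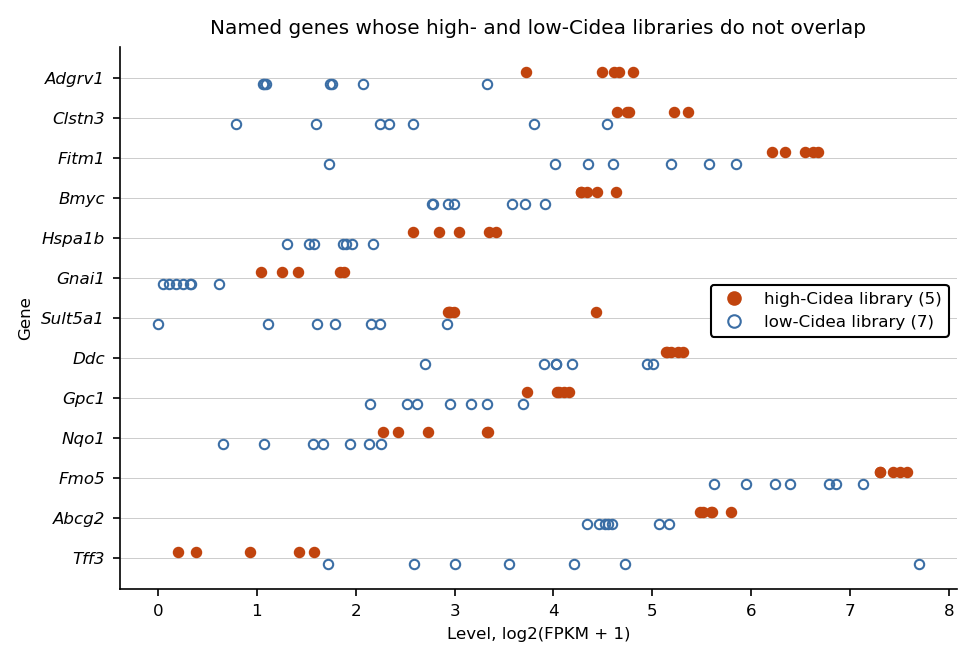
Level of the 13 named genes that met the rule (horizontal axis, log2(FPKM + 1)) in each library, with filled orange points for the 5 high-Cidea and open blue points for the 7 low-Cidea libraries. In each row the colours do not overlap, with Tff3 the only gene whose orange points lie to the left, and the gaps are smallest for Sult5a1 and Nqo1 (0.02 and 0.06 FPKM). A further gene that met the rule is known only by a serial name and is not drawn.

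The other lipid droplet genes followed Cidea only in part. Of 16 kept genes besides Cidea in a list of droplet proteins and lipases, 11 had a higher median in the high-Cidea libraries (9 on CPM), the median difference was 0.20, and only Fitm1 had ranges apart. That count is near the share of all genes, of which 69.0% were higher (47.7% on CPM). Ranges were apart upward in 1.2% of all genes. Cidec, the CIDE protein of large droplets in white fat, was at 29.8, 28.5, 90.8, 88.3 and 9.68 FPKM, against 0.22 to 24.9 (median 1.39) FPKM in the low libraries. Plin4, a droplet coat protein abundant in fat cells, was at 7.95, 7.6, 15.9, 16.3 and 2.05 FPKM against 0.1 to 8.29 (median 0.31) FPKM. In both genes the 2 sets overlapped through HF floxed 3, which was the lowest high library, and through HF knockout 3 (HF knockout 2 too for Cidec). HF floxed 3 held about as much Cidec (9.68 FPKM) as LF knockout 1 (8.62 FPKM), although its Cidea was 27.4 against 0.61 FPKM. HF knockout 2 had 24.9 FPKM of Cidec but 0.10 FPKM of Plin4.

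Plin2, the main droplet coat protein of hepatocytes, did not follow the split: it was at 356.6, 335.1, 710.03, 684.5 and 353.9 FPKM in the high and 208.7 to 571.1 (median 339.8) FPKM in the low libraries, with a difference of 0.07. Its highest low library was LF knockout 1, at 571.1 FPKM, above both of the other LF knockout libraries. Fitm2, the broadly expressed relative of Fitm1, was at 15.2, 15.4, 18.8, 21.3 and 12.7 FPKM against 4.11 to 13.8 (median 6.51) FPKM, and only HF knockout 3 reached into the high range. G0s2, an inhibitor of the lipase ATGL, had a lower median in the high libraries, with 87.5, 84.02, 179.96, 183.9 and 92.8 FPKM against 32.5 to 282.3 (median 160.9) FPKM and wide overlap.

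**Figure D3:**
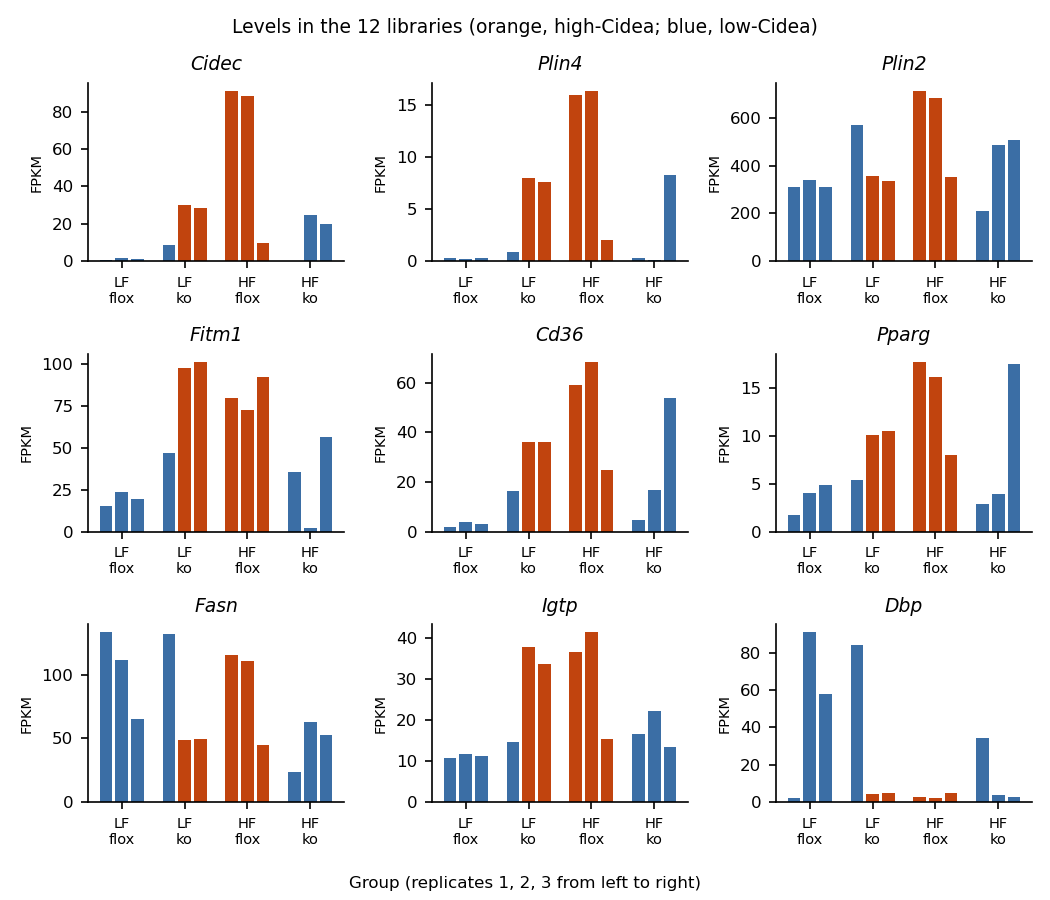
Levels in FPKM (vertical axes, linear, from 0) of 9 genes in the 12 libraries, 1 bar per library, grouped by diet and genotype and coloured by Cidea level (orange high, blue low). Cidec, Plin4, Cd36 and Pparg are also raised in HF knockout 3 (last bar), whose Cidea is 2.32 FPKM, Fasn is not higher in the orange bars, and Dbp is low in all 5 of them.

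Genes of fatty acid uptake and of triglyceride synthesis, as a list, lay near all genes: 15 of 20 were higher (11 on CPM), with a median difference of 0.13, beside 69.0% (47.7% on CPM) and 0.12 over all genes, and none had ranges apart. Single members differed more. Cd36, a fatty acid transporter of the cell membrane, was at 36.02, 36.2, 59.1, 68.3 and 24.8 FPKM against 1.85 to 53.8 (median 4.51) FPKM. All 5 high libraries exceeded 6 of the 7 low ones, and HF knockout 3, at 53.8 FPKM, lay among the high values. Mogat1, which makes diacylglycerol from monoacylglycerol, was at 4.71, 4.59, 9.7, 9.94 and 4.23 FPKM against 0.11 to 4.3 (median 0.85) FPKM, and HF knockout 3 was again the library that overlapped. Fabp5, a fatty acid carrier, ran the other way: it was at 2.64, 3.5, 4.65, 5.02 and 3.31 FPKM in the high libraries and 4.39 to 181.7 (median 19.3) FPKM in the low ones, where LF floxed 2 and 3 and HF knockout 2 exceeded 100 FPKM and LF floxed 1 had 4.75 FPKM. Pparg, the nuclear receptor that drives several of these genes, was at 10.1, 10.5, 17.7, 16.1 and 7.98 FPKM against 1.72 to 17.5 (median 3.99) FPKM. Among 17 lipid-sensing transcription factors it had the largest difference, 1.20, and the median over them was 0.003.

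De novo lipogenesis genes, which build fatty acids from acetyl-CoA, were not higher where Cidea was high. Of 15 genes, 14 had a lower median in the high-Cidea libraries on either scale, the median difference was -0.38, and none had ranges apart. Over all genes 69.0% were higher (47.7% on CPM) and the median difference was 0.12. Fasn, the fatty acid synthase, was at 48.6, 49.8, 115.2, 110.8 and 44.96 FPKM against 23.9 to 133.3 (median 65.2) FPKM. Scd1, which desaturates fatty acids, was at 1435, 1433, 2677, 3082 and 521.03 FPKM against 73.01 to 4811 (median 2678) FPKM. Acss2, which makes acetyl-CoA from acetate, had the largest difference, -1.12, at 23.1, 22.1, 35.2, 33.2 and 25.5 FPKM against 26.8 to 171.8 (median 56.4) FPKM. Within the high libraries HF floxed 1 and 2 had more Fasn than the other 3, and among the low ones LF floxed 1 had more than HF knockout 1, 133.3 against 23.9 FPKM.

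Cholesterol synthesis genes showed the same direction, with 17 of 20 lower (19 of 20 on CPM) and a median difference of -0.42. Sqle, which oxidises squalene, was at 2.18, 3.09, 12.8, 14.1 and 3.68 FPKM against 2.67 to 90.3 (median 13.8) FPKM, and HF knockout 2 held the highest value. Of 26 genes of fatty acid oxidation and other PPAR alpha targets, 20 were higher (17 on CPM), with a median difference of 0.22 and no ranges apart, beside 69.0% (47.7% on CPM) and 0.12 over all genes. Within LF knockout only 8 of the 26 were higher, beside 58.5% of all genes. Vnn1, a pantetheinase and PPAR alpha target, was at 53.9, 57.4, 70.04, 71.8 and 40.4 FPKM against 2.85 to 47.5 (median 15) FPKM, and HF knockout 3 was the only low library inside the high range. Acaa1b, a thiolase of peroxisomal oxidation, was at 1069, 1056, 1215, 1123 and 636.4 FPKM against 85.3 to 839.6 (median 489.2) FPKM, with LF knockout 1 and HF knockout 3 above HF floxed 3.

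Interferon response genes were higher in the high-Cidea libraries as a group, although no member had ranges apart. Of 21 kept genes, 21 had a higher median (20 on CPM) and the median difference was 1.05, beside 0.12 and 69.0% over all genes. These genes are induced by interferons through the STAT and IRF factors and encode antiviral proteins and GTPases that act on intracellular pathogens. Gbp6, a guanylate-binding protein, had the largest difference, 2.22, at 9.83, 9.05, 12.7, 13.8 and 4.1 FPKM against 0.88 to 6.73 (median 1.32) FPKM. Igtp, an immunity-related GTPase, was at 37.7, 33.7, 36.5, 41.3 and 15.5 FPKM against 10.8 to 22.1 (median 13.3) FPKM. Irgm1, which regulates that family, was at 33.9, 39.9, 35.3, 37.9 and 27.3 FPKM against 10.4 to 28.3 (median 17.6) FPKM. For all 3 genes LF floxed and LF knockout 1 were low, and what overlapped was HF floxed 3, the lowest high library, with at least 1 HF knockout library above it. Reads of the closely related guanylate-binding proteins can be shared, so their single values are uncertain.

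Class II antigen presentation genes, which antigen-presenting cells use to show peptides to T cells, moved the same way, with 6 of 6 kept genes higher and a median difference of 1.06. H2-Eb1 was at 16.7, 16.9, 43.3, 37.6 and 24.04 FPKM against 5.26 to 27.8 (median 8.95) FPKM, and Cd74, the invariant chain, was at 91.3, 98.9, 232.4, 203.5 and 135.1 FPKM against 33.6 to 151.5 (median 55.95) FPKM. HF knockout 2 was the low library that overlapped most, with 27.8 FPKM of H2-Eb1 and 151.5 FPKM of Cd74. Kupffer cell markers, 14 genes of which 12 were higher (10 on CPM), summed to 233.5 to 497.0 FPKM in the high and 150.1 to 767.3 FPKM in the low libraries. Monocyte and lipid-associated macrophage markers, 10 of 14 higher on either scale, summed to 74.3 to 260.0 FPKM against 48.3 to 293.6 FPKM, and T, NK and B cell markers to 4.66 to 11 FPKM against 3.46 to 11.8 FPKM. These counts are to be read beside 69.0% of all genes higher (47.7% on CPM), and the monocyte share is near the former. The part of these cells in the interferon and class II values was not tested.

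Because the interferon genes leaned together, their upstream sequences were searched for the core of the interferon-stimulated response element, which is GAAA, any 2 bases and GAAA again, on either strand. The 250 bases before the start of each gene came from RefSeq, build GRCm38.p6, a later build than the one named for the files. Of the 21 list genes, 17 matched the table and 11 of these held the motif, beside 936 of 27025 genes (3.46%) in the whole table. The list was made of interferon-induced genes, so this share may come with the choice of list and says nothing about the split. The 11 were Cxcl10, Gbp2, Gbp3, Ifit1, Ifit3, Igtp, Irgm1, Isg15, Oas1a, Rsad2 and Stat2. Here 5 of them are printed 5′ to 3′ on the gene's strand, chosen for their size of difference or for motifs close to the start, with the motif in capitals: Igtp chr11:58199306-58199555 (plus strand), Irgm1 chr11:48871421-48871670 (minus strand), Gbp2 chr3:142620413-142620662 (plus strand), Gbp3 chr3:142559794-142560043 (plus strand) and Ifit1 chr19:34640639-34640888 (plus strand).
Igtp: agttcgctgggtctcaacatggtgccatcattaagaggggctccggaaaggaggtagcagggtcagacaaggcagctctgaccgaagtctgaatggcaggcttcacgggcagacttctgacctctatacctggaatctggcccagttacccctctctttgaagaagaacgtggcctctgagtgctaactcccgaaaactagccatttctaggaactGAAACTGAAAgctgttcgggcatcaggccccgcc
Irgm1: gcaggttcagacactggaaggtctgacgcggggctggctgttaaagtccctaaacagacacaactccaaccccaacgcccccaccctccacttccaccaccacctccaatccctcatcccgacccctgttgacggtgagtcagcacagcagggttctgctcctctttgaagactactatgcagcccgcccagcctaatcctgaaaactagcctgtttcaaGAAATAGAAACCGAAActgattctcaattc
Gbp2: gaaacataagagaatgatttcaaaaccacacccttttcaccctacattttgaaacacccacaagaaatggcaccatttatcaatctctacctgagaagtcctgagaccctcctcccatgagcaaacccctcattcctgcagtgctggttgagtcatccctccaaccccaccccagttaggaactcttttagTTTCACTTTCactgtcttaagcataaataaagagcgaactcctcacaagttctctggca
Gbp3: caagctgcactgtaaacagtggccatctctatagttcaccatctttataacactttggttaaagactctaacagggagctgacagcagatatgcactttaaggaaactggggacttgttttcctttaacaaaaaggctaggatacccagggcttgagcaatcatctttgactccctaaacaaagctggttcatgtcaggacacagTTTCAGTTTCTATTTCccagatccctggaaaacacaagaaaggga
Ifit1: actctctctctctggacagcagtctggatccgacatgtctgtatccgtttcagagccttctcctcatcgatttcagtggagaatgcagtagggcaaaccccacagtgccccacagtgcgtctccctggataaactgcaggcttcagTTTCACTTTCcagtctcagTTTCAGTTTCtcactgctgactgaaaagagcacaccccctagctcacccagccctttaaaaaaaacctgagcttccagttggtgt
The motif lay 34 bases before the start in Igtp, and it occurred 2 times in Irgm1, Gbp3 and Ifit1, overlapping in Irgm1 and Gbp3. Ifit1, which encodes an antiviral RNA-binding protein, was at 8, 7.88, 6.73, 7.3 and 3.31 FPKM against 1.69 to 6.3 (median 2.36) FPKM, Gbp2 at 3.58, 3.22, 5.64, 6.43 and 2.18 FPKM against 0.66 to 5.04 (median 1.26) FPKM, and Gbp3 at 5.24, 5.32, 5.96, 7.05 and 1.75 FPKM against 0.77 to 4.08 (median 1.19) FPKM. Stat2, which also holds the motif, differed by only 0.14. A match is a description of these letters and not evidence of a bound site.

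Heat shock chaperones, which hold and refold unfolded proteins, were higher in the high-Cidea libraries as a list. This list was chosen after Hspa1b was seen among the 14 genes, so Hspa1b counts as apart by the choice of the list. Of 20 kept genes, 20 were higher (18 on CPM), with a median difference of 0.69 (0.48 on CPM). Over all genes 69.0% were higher (47.7% on CPM), with a median difference of 0.12 (-0.01 on CPM). Ranges were apart upward in 4 (Hspa1b, Hspa4, Dnajb1 and Dnajb4), Hspa1b by that choice, where 1.2% of all genes were. Within LF knockout 15 of the 20 were higher, beside 58.5% of all genes. Hspa1b, an inducible HSP70, was at 9.72, 9.18, 4.98, 6.16 and 7.24 FPKM against 1.48 to 3.52 (median 2.65) FPKM, with both LF knockout libraries above the HF floxed ones. Its near-identical copy Hspa1a, which shares reads with it and lay under the level filter, was at 1.15, 1.33, 0.85, 0.76 and 0.72 FPKM against 0.07 to 0.51 (median 0.34) FPKM, also without overlap. Dnajb1, a cofactor of HSP70, was at 10.3, 10.6, 7.65, 7.39 and 9.57 FPKM against 4.68 to 5.94 (median 5.16) FPKM. Dnajb4, of the same family, was at 7.11, 7.39, 5.33, 5.27 and 6 FPKM against 2.68 to 4.3 (median 3.19) FPKM. Hspa4, a nucleotide exchange factor, was at 25.2, 24.7, 23.4, 26.8 and 25.04 FPKM against 13.5 to 22.2 (median 17.9) FPKM. Hspb8 (difference 0.14), Hspe1 (0.15) and Hsf1, the factor that drives the response (0.06), differed little beside the all-gene 0.12.

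The palindromic core of the heat shock element, GAANNTTC, which reads the same on both strands, was found in 5 of the 15 list genes with an upstream sequence (Dnaja1, Hspa1b, Hspb1, Hspd1 and Hspe1), beside 2088 of 27025 genes (7.73%). As the list was made of heat shock chaperones, this share may come with the choice of list and says nothing about the split. The windows of Hspd1 and Hspe1 overlap on opposite strands, and their matches are the same bases, so the same site counts for both genes. The sequence of Hspa1b, Hspa1b chr17:34959239-34959488 (minus strand), is given because it is the chaperone gene with the largest difference, and its motif lies 104 bases before the start.
Hspa1b: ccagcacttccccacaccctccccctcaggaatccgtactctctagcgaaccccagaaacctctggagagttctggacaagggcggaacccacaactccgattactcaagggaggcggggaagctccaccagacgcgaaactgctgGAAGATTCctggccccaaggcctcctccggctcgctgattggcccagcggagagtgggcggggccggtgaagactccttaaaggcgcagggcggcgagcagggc
Dnajb1, Dnajb4 and Hspa4 hold no such match, which says only that these letters are not in this window.

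NRF2 targets, which encode enzymes against oxidants and electrophiles, were higher in 11 of 11 kept genes on either scale, with a median difference of 0.69. Nqo1, a quinone reductase, was the only one with ranges apart, at 5.62, 4.39, 9.04, 9.08 and 3.85 FPKM against 0.58 to 3.79 (median 2.19) FPKM, and the gap, 0.06 FPKM, lay between HF floxed 3 (3.85) and LF knockout 1 (3.79). Gsta1, a glutathione transferase whose reads may be shared with Gsta2, was at 21.4, 18.7, 63.7, 72.3 and 4.12 FPKM against 0.56 to 13.8 (median 4.81) FPKM. HF floxed 1 and 2 carried most of it. In the list of integrated stress and unfolded protein responses, 12 of 15 genes were higher (10 on CPM), with a median difference of 0.29. All genes had 69.0% higher (47.7% on CPM), a median of 0.12 and 1.2% with ranges apart upward. Ddit3, the stress-induced transcription factor CHOP, had ranges apart, at 19.9, 16.1, 11.7, 9.7 and 8.7 FPKM against 3.66 to 7.72 (median 5.57) FPKM. Chac1, a glutathione-degrading enzyme, had the largest difference of that list, 1.51, at 4.94, 6.02, 5.46, 6.28 and 2.3 FPKM against 0.36 to 3.61 (median 1.27) FPKM, with overlap. Asns and Trib3, targets of ATF4, had lower medians in the high libraries (differences -0.53 and -0.55).

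Matrix and stellate cell genes were higher in all 29 kept genes on either scale, with a median difference of 0.55, and 1 of them, Lum, had ranges apart. Of all genes, 1.2% had ranges apart upward. Lum, a small proteoglycan that organises collagen fibrils, was at 4.5, 3.95, 8.71, 10.3 and 4.41 FPKM against 1.17 to 2.97 (median 2.39) FPKM. Col3a1, a fibrillar collagen, had the largest difference, 1.60, at 7.25, 8.35, 17.6, 19.3 and 5.43 FPKM against 1.68 to 16.8 (median 2.09) FPKM. HF knockout 2 and 3, at 16.8 and 12.1 FPKM, exceeded HF floxed 3 and both LF knockout libraries in Col3a1. The list summed to 235.6 to 452.6 FPKM in the high and 114.6 to 483.5 FPKM in the low libraries. Endothelial markers, 11 of 12 higher (9 on CPM) beside 69.0% of all genes (47.7% on CPM), summed to 71.3 to 95.7 FPKM against 28.7 to 118.2 FPKM. Cdkn1a, a cell cycle inhibitor, was at 15.99, 16.3, 55.9, 51.3 and 7.73 FPKM against 0.98 to 57.8 (median 2.53) FPKM.

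Fat cells also express Cidea, and several of their defining genes, but not all listed markers, were near 0. Adipoq reached at most 0.21 FPKM, Retn 0.22 and Plin1 0.07 in any library, and Lep, Ucp1 and Trarg1 were not listed in any. Pde3b, a phosphodiesterase not limited to fat cells, was at 11.8, 12.96, 9.06, 11.2 and 10.6 FPKM in the high and 5.68 to 12.2 (median 8.95) FPKM in the low libraries. Of 7 listed adipocyte markers 2 passed the level filter, Pde3b and Cfd, and the 7 summed to 13.4 to 25.9 FPKM in the high and 5.97 to 40.3 FPKM in the low libraries. Cfd, the complement factor adipsin, was at 13.8, 12.3, 4.01, 4.18 and 7.07 FPKM against 0 to 29.5 (median 0.08) FPKM, where 6 low libraries had 0.35 FPKM or less and HF knockout 3 had the most of all 12. The part of fat cells in the other differences was not tested. Hepatocyte secreted proteins and enzymes were lower in 11 of 17 genes, with a median difference of -0.25, while 69.0% of all genes were higher.

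Stk39, a kinase that regulates ion cotransporters, followed the pattern of Cidea most closely over the 12 libraries, with Pearson's r of 0.970 between the log2(FPKM + 1) values. It was at 1.74, 1.67, 1.97, 2.37 and 1.57 FPKM against 0.3 to 0.93 (median 0.45) FPKM, without overlap. Stk39 thus passed the level filter only through high-Cidea libraries. Next came the splicing factor Prpf3 (0.947), Gpc1 (0.927), Dph2 (0.925), Ctps (0.924), Atg4a (0.922), Cryzl2 (0.919), Sulf2 (0.913), Dpt (0.912) and Capn15 (0.911). These r values served to choose the genes, the libraries fall into 2 sets of Cidea level, and no p belongs to them. Their differences varied: Gpc1 (1.10), Dpt (1.05), Sulf2 (1.02), Ctps (0.97) and Stk39 (0.92) differed most, while Prpf3 differed by 0.34, at 3.33, 3.49, 3.34, 3.39 and 3.01 FPKM against 2.1 to 2.58 (median 2.42) FPKM. Of opposite pattern were Dclk3 (-0.911), Crb3 (-0.872), Bmf (-0.871), Ceacam1 (-0.860) and Rps27 (-0.857). Bmf, a pro-apoptotic BCL2 relative, was at 0.36, 0.51, 0.63, 0.65 and 0.59 FPKM against 1.01 to 2.71 (median 1.78) FPKM. Bmf and Dclk3 passed the level filter only through low-Cidea libraries.

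The split contains 2 contrasts that share no library: replicates 2 and 3 minus replicate 1 within LF knockout, and HF minus LF within floxed, where all HF libraries were high and all LF libraries low. Across 10532 genes the mean differences had the same sign in 7247 (68.8%), with Pearson's r of 0.493 and Spearman's rho of 0.50, both as descriptions across genes that are not independent. Positive differences made up 58.5% of genes in LF knockout and 74.9% in floxed. In both contrasts 102 genes (0.968%) differed by 1 or more and 20 (0.19%) by -1 or less, while 11 did so in opposite directions. Replicate numbers in LF knockout carry no treatment, and 1 library stands on the low side there. Both contrasts also differ in the clock gene Dbp, at 4.24 and 5.03 against 84.2 FPKM within LF knockout. Within floxed it was at 2.44, 2.39 and 4.97 FPKM in HF against 1.98, 90.8 and 57.9 FPKM in LF. High Cidea and low Dbp thus largely coincide in these contrasts and cannot be told apart there.

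Interferon genes kept their place in both contrasts, with 21 of 21 positive and medians of 1.19 in LF knockout and 1.28 in floxed. Class II genes had 6 of 6 positive in each, with medians of 1.09 and 1.93. These counts and those below are to be read beside all genes, with 58.5% positive in LF knockout (median 0.08) and 74.9% in floxed (median 0.20). Lipid droplet genes had 7 of 16 positive in LF knockout (median -0.13). In floxed they had 12 of 16 positive (median 0.56), a share near that of all genes. Lipogenesis genes had 0 of 15 positive in LF knockout (median -1.52) and 4 of 15 in floxed (median -0.29), and fatty acid oxidation genes 8 of 26 (median -0.17) and 23 of 26 (median 0.48). The difference between the contrasts was not tested.

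**Figure D4:**
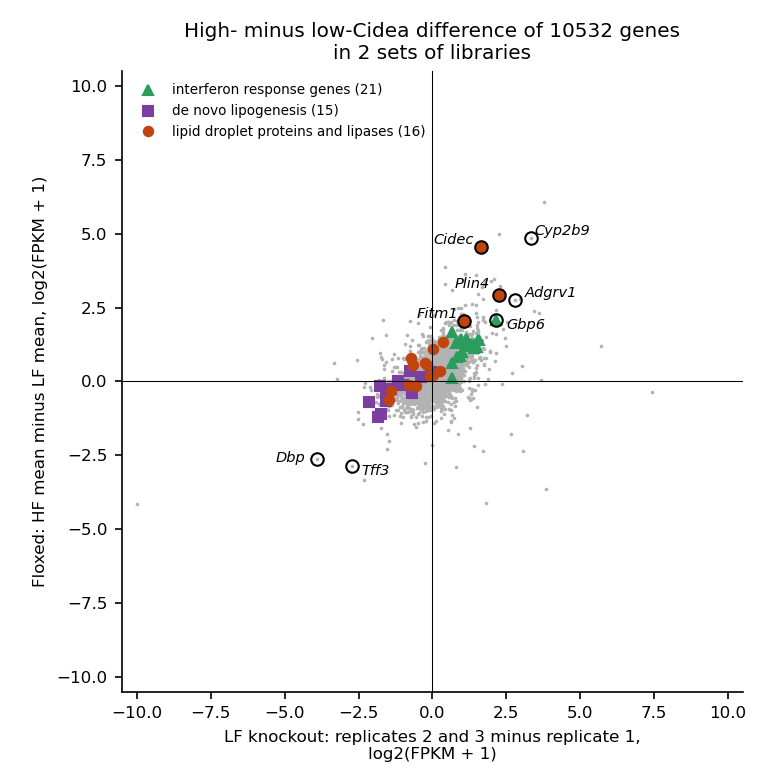
Difference of 10532 genes between high- and low-Cidea libraries within LF knockout (horizontal axis, replicates 2 and 3 minus replicate 1) and within floxed (vertical axis, HF minus LF), both in log2(FPKM + 1), 1 point per gene. Green triangles, the 21 interferon genes, lie right of and above 0, purple squares, the 15 lipogenesis genes, lie left of 0, and orange circles, 16 lipid droplet genes, lie on both sides. Circled genes are named.

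Among genes with the largest differences of the same sign in both contrasts, Cyp2b9 was prominent. Cyp2b9 is a cytochrome P450 with more expression in female than in male mouse liver. It was at 96.9, 94.5, 44.3, 46.2 and 36 FPKM in the high-Cidea libraries and at 0.71, 0.43 and 0.35 FPKM in LF floxed, 8.47 in LF knockout 1 and 45.7, 115.8 and 71.2 in HF knockout. All 9 libraries other than LF floxed were thus above it, HF knockout included. Its neighbour Cyp2b13, whose reads may be shared with it, was at 0 in LF floxed, at 0.19 FPKM in LF knockout 1 and between 3.34 and 13.9 FPKM in all others. Orm3, an acute phase protein, was at 14.8, 16.7, 7.65, 5.99 and 10.2 FPKM against 0 to 39.1 (median 0.58) FPKM, and HF knockout 1 was highest. Major urinary protein genes, near-identical copies that share reads, differed in pattern, and their single values are uncertain. Mup7 ranged from 16.7 to 16108 FPKM in the high and from 2.24 to 19969 FPKM in the low libraries. Mup9 was at 166.8, 152.7, 1901, 2181 and 375.4 FPKM against 0.33 to 428.1 (median 13.7) FPKM, a difference of 4.68, and HF knockout 1, at 428.1 FPKM, was the only low library above the lowest high one. Mup10 ran the other way, at 0, 0, 416.7, 0 and 9.37 FPKM against 1.03 to 5841 (median 1017) FPKM, a difference of -9.99, and its sets overlapped through HF floxed 1 and 3.

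Dbp, a transcription factor whose level swings over the day with the clock, was low in all 5 high-Cidea libraries. It was at 4.24, 5.03, 2.44, 2.39 and 4.97 FPKM there. The low libraries were mixed, with 1.98, 90.8 and 57.9 FPKM in LF floxed, 84.2 in LF knockout 1 and 34.1, 3.97 and 2.64 FPKM in HF knockout. The time of day at which tissue was taken is not given in the sources used here. The list of 14 clock genes joins genes that peak at opposite times of day, so its median difference of 0.14 (-0.01 on CPM) spans differences of both signs. Of these genes 9 were higher (6 on CPM), beside 69.0% of all genes (47.7% on CPM). Arntl, the activator BMAL1, was at 6.33, 5.73, 6.12, 6.38 and 4.09 FPKM against 0.76 to 10.4 (median 1.36) FPKM (difference 1.59), and Npas2, a partner of it, differed by 1.33. Tef, a relative of Dbp, was at 7.97, 8.81, 5.32, 6.09 and 8.03 FPKM against 2.99 to 27.3 (median 16.4) FPKM (difference -0.96), and Nr1d1, the repressor REV-ERB alpha, differed by -0.69. These 4 were named after their values were seen. In all 5 genes LF floxed 2 and 3, LF knockout 1 and HF knockout 1 stood apart from the other 8 libraries, so LF floxed 1 and HF knockout 2 and 3, all low in Cidea, lay on the side of the high-Cidea libraries. The part of Dbp and the clock in the other differences was not tested.

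**Figure D5:**
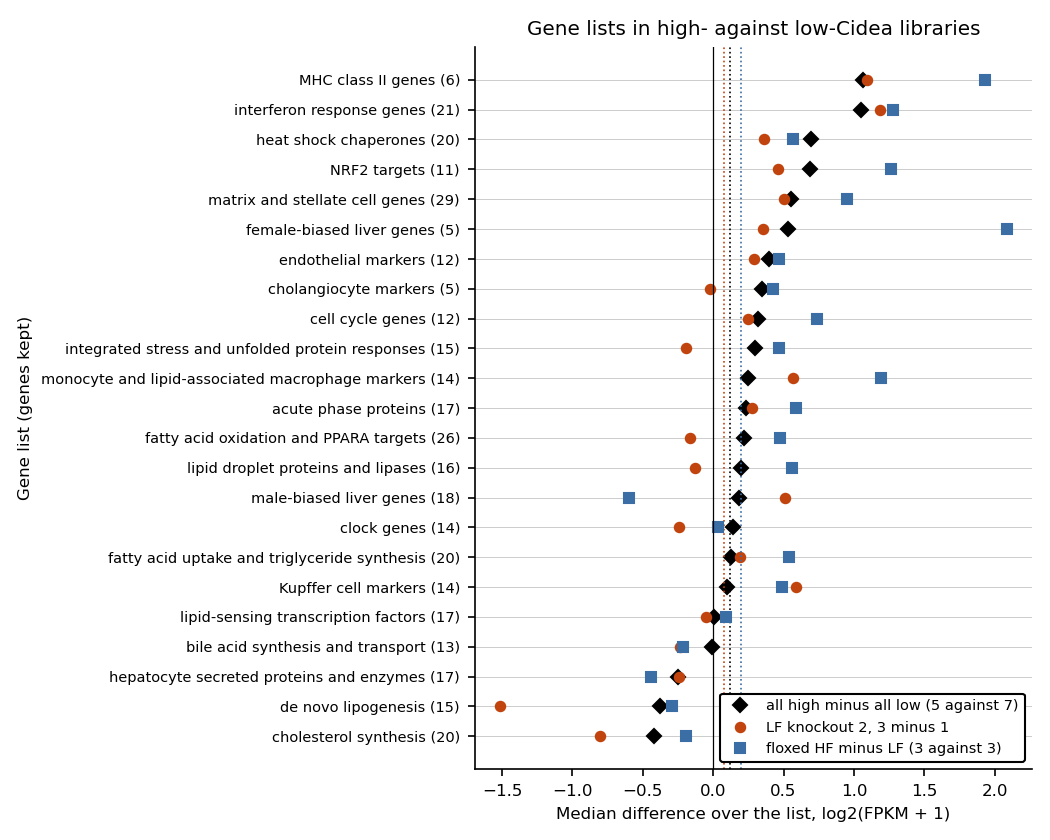
Median difference of each gene list with at least 5 kept genes (horizontal axis, log2(FPKM + 1); number of genes in parentheses) for all 5 high against all 7 low libraries (black diamonds), within LF knockout (orange circles) and within floxed libraries (blue squares). Dotted lines of the same colours mark the median of all genes. Class II, interferon, chaperone, NRF2, matrix, female-biased, endothelial, cell cycle, monocyte and acute phase lists lie right of their dotted lines in all 3, as does fatty acid uptake by less than 0.01 for the black diamond, and lipogenesis, cholesterol, bile acid, hepatocyte and lipid-sensing factor lists lie left.

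The diet effect within each genotype and the difference between these effects were tested with edgeR's quasi-likelihood test over 12587 genes and all 12 libraries. Knockout against floxed within a diet was not tested. Since no animals are named, p-values reflect the spread among libraries, part of which may be technical. At a false discovery rate of 5%, HF against LF gave 0 genes (0.0%) in floxed and 0 genes (0.0%) in knockout libraries. At an unadjusted p under 0.05 the counts were 1532 and 1534, and DESeq2 called 240 and 124. Without LF knockout 1, HF floxed 3 or HF knockout 1 edgeR called 7, 14 and 7 genes in floxed libraries, and without HF knockout 1 or HF knockout 3 it called 1 and 10 in knockout libraries. The difference between the diet effects (knockout minus floxed) sets HF floxed and LF knockout against LF floxed and HF knockout, so it nearly repeats the Cidea split and is no independent support for genes found by it. It called 2 genes (0.0159%), with 1202 at an unadjusted p under 0.05, 111 by DESeq2 and 10 and 17 without LF knockout 1 and HF knockout 3.

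Gnai1 was 1 of the 2, with a log2 difference of diet effects of -6.26 ± 0.79 (approximate SE, adjusted p by edgeR 0.0358). Each SE here was derived as the size of the log2 value over the square root of edgeR's F. The diet effect was 3.13 ± 0.54 in floxed and -3.12 ± 0.58 in knockout libraries (adjusted p by edgeR 0.135 and 0.344). With single libraries left out the adjusted p of the difference ranged from 0.007345 to 0.1789, so the call rested on which libraries were included. The other was Morf4l1b, a relative of the chromatin protein Morf4l1 that may share its reads, named here after its values were seen. Its diet effects differed by 3.11 in the opposite direction (adjusted p by edgeR 0.004518). Morf4l1b was lowest in LF knockout and HF floxed, at 4.98, 4.81 and 3.9 FPKM and at 4.52, 5.38 and 5.37 FPKM, and higher in LF floxed, at 15.7, 10.9 and 12.3 FPKM, and HF knockout, at 10.4, 11.8 and 16.4 FPKM. LF knockout 1, with little Cidea, was low in Morf4l1b too. For Cidea the difference was -12.36 on the log2 scale, given as a description since Cidea made the split.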

How the data were processed

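Total RNA of whole mouse liver was sequenced in 12 libraries, each deposited as 1 file. The estimated counts in these files were deposited by the authors unscaled, per the file headers, and were rounded here for the count tests. The FPKM values in the same files were computed by the authors, per the file headers, by scaling to gene length and depth. The submitters' processing notes name build mm9, while aligner, counter and annotation were not given in the sources used here. Named genes are rows with a numeric gene number (16239, of which 16210 (99.8%) had a RefSeq gene type). The files leave out unlisted genes, so a missing gene counted as 0 (3825 genes are missing in 1 library or more). Loci without a name (6.65 to 17.33% of counts) were left out.

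Libraries were split at 20 FPKM of Cidea, and each other gene was described by its FPKM values, by the difference of log2(median FPKM + 1) between high and low libraries, and by whether the ranges overlap, with no p-value. This used Python 3.11.15, numpy 2.4.6 and pandas 2.3.3. A filter of 1 FPKM in 3 libraries kept 10532 genes besides Cidea. Of these, 35 passed it only through high libraries, Gnai1 and Stk39 among them. Another 70 passed only through low libraries, Bmf and Dclk3 among them. Diet and its difference between genotypes were tested with edgeR 4.0.16 (limma 3.58.1, R 4.3.3): TMM, filterByExpr (12587 genes), quasi-likelihood tests of a 4-group model with no replicate block, and Benjamini-Hochberg adjusted p-values. Scripts were tested on simulated data. Total estimated counts were alike, at 16131506 to 16536016. Counts of named genes ran from 13336969 in LF floxed 1 to 15080378 in HF knockout 2, so precision per gene can still differ.

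The members and the 27 gene lists were chosen with earlier results of these data known, and the chaperone list after the split's values were seen. Genes were named by rule: Cidea and Thbs1; up to 12 genes in each direction that met the split's rule; in each list up to 3 such members, or otherwise the 1 of largest difference; the 10 genes most like and the 5 least like Cidea; and the 8 genes of largest difference of 1 sign in both contrasts. Genes with serial names were skipped, and further list members were named after their values were seen. Alternatives were other Cidea thresholds, TMM-scaled CPM, a pseudocount of 0.1, other filters, DESeq2 1.42.0, its size factors, limma on log2(FPKM + 1), a replicate block, averaging near-identical libraries and leaving out each library. Leaving out LF knockout 2 and 3 together, or HF knockout, was added after seeing the data. Promoters came from RefSeq (GRCm38.p6).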

Additional observations from a re-analysis of the deposited data

Results flagged for a closer look

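Bmyc, Gnai1 and Nqo1 stood out because every HF library differed from every LF library in one direction within floxed mice and in the opposite direction within knockout mice, or because the difference itself passed the test. The log2 difference of the diet effects, knockout minus floxed, was -6.26 for Gnai1 (adjusted p by edgeR 0.0358). For Bmyc it was -1.76 and for Nqo1 -2.71, neither past the threshold (adjusted p by edgeR 0.3961 for both). All 3 genes were chosen by the Cidea split, which nearly repeats this contrast.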

How the results depend on the processing

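The split gave 13 genes higher and 1 lower. A threshold of 10 FPKM gave the same libraries. Counts moved to 0 lower at 5 FPKM (10 higher), 75 and 5 at 1 FPKM, 47 higher at 30 FPKM, 7 lower on TMM-scaled CPM (16 higher), 20 and 4 with a pseudocount of 0.1, 126 and 16 with no minimum difference, 28 and 4 without LF knockout 2 and 3, and 127 and 13 without HF knockout. Leaving out 1 library gave 11 to 59 higher (59 without HF floxed 3, 54 without HF knockout 3) and 1 to 3 lower (3 without LF floxed 1 or HF knockout 3). Adgrv1 and Clstn3 met the rule in 22 of 24 alternatives, Nqo1 in 14 and Fmo5 in 13. Adgrv1 and Clstn3 failed it at Cidea thresholds of 5 and 1 FPKM, which move libraries to the high side. Of the 55 named genes other than Cidea, 51 kept their sign in all alternatives.

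For the 2 disjoint contrasts, 7247 genes shared a sign (6955 to 7467 with 1 library left out), and genes past 1 or -1 in both were 102 and 20. They became 49 downward on CPM, and 278 and 44 with a pseudocount of 0.1. Without 1 library they were 92 to 114 and 17 to 35 (35 without LF floxed 1). Without LF knockout 1 the LF contrast has no low library and no value.

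edgeR calls for diet in floxed, in knockout and for the difference (0, 0 and 2) became 240, 124 and 111 with DESeq2, whose fit tested 16088 genes. Without a filter floxed gave 1 call. With 1 library left out the ranges were 0 to 14, 0 to 10 and 1 to 17. A replicate block left 1 call for the difference and an adjusted p of 0.1692 for Gnai1. Libraries of the same number in different groups had a median correlation of -0.032 (-0.4 to 0.446), and those of other numbers 0 (-0.642 to 0.59). These values show no pairing by number, but with 3 libraries per group and such wide ranges they cannot settle whether one exists. The cause of these shifts was not tested. Low levels such as those of Gnai1 and Thbs1 rest on few reads.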

Other observations

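HF knockout 2, a low-Cidea library with 7.89 FPKM, held several values found in no other library. Spp1, the secreted phosphoprotein osteopontin, was at 743.2 FPKM there and at 17.7 to 103.3 FPKM in the other 11. Cyp2a4, a cytochrome P450 whose reads may be shared with its close relatives, was at 1119.7 FPKM there, against 0.04 to 80.2 FPKM. Scd2, a desaturase scarce in adult liver, was at 136.3 FPKM there and at 0.76 to 2.58 FPKM elsewhere. Albumin (Alb) was also highest there, at 72054 FPKM, and Cyp8b1, of bile acid synthesis, lowest, at 4.38 FPKM against 83.2 to 222.3 FPKM.

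HF knockout 3 had S100a9, a neutrophil protein, at 187.4 FPKM, against 0.77 to 5.62 FPKM in the other 11 libraries, and Lyz2, lysozyme of myeloid cells, at 1.35 FPKM, the lowest of all.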
